A study of Mus musculus with 12 samples.

Results

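Type I interferon response genes, the transcripts that interferon alpha and beta switch on in nearly every cell, were followed in monocytes and macrophages of leukemic bone marrow. The members were 33 gene symbols chosen for their known induction by interferon, and 32 of them had a transcript cluster on the array. Ifi44 was the symbol without one, and Ifit3b was matched through its older symbol. Each gene was represented by its brightest cluster over the 12 arrays. All 32 were bright enough to be tested, among 37240 tested clusters that included 19489 named genes.

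The cells were isolated by magnetic separation from the bone marrow of 12 mice, and the RNA of each mouse was hybridised to 1 whole-transcriptome mouse array. All animals, controls included, were Rag2-/-gamma c-/- mice on a BALB/c background, a host without mature T, B and natural killer cells that accepts human cells. In 6 of them MEC1 cells had been injected intravenously. MEC1, an established line, consists of human leukemic B cells from a patient with chronic lymphocytic leukemia, so that the model rests on a single line. The control groups received no MEC1. There were 3 mice with MEC1 and 3 without at 21 d (11 weeks of age, early disease) and 3 of each at 31 d (13 weeks of age, late disease), all of them different animals.

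Type I interferons bind a receptor made of Ifnar1 and Ifnar2, whose kinases are Tyk2 and Jak1. Their signal leads to the complex ISGF3, of which Stat2 and Irf9 are parts and which binds the interferon-stimulated response element of its target promoters. The targets include antiviral effectors, sensors of viral RNA and DNA, further transcription factors such as Irf7, and the brake Usp18, and macrophages keep many of them at a low tonic level without infection.

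The promoters of these genes carried that element more often than promoters in general. RefSeq promoter windows on GRCm38.p6, running from 250 bases before to 50 bases after a transcription start, were available for 23 of the listed genes. The core of the element, GAAA, any 2 bases and GAAA, searched on both strands, where overlapping copies were counted separately, lay in the window of 13 of the 23 (56.5%) and in 3.99% of all 27025 genes with a window. The STAT dimer motif, TTC, any 3 bases and GAA, which reads the same on both strands, lay in 3 of the 23 (13.0%) and in 9.55% of all genes. The upstream bases of 5 genes are shown here because they span the cases met below: Rsad2, Stat2 and Herc6 fell at 31 d, and Isg15 and Ifit1 did not pass the test. Capitals mark each match of the core or of its reverse complement (TTTC, any 2 bases, TTTC).

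Rsad2 (chr12:26456453-26456702, reverse strand): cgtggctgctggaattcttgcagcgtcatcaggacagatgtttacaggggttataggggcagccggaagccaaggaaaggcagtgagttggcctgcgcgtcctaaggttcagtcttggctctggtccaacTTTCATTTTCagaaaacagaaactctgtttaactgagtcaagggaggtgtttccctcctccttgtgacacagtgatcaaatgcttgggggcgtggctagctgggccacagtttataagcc

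Stat2 (chr10:128270248-128270497, forward strand): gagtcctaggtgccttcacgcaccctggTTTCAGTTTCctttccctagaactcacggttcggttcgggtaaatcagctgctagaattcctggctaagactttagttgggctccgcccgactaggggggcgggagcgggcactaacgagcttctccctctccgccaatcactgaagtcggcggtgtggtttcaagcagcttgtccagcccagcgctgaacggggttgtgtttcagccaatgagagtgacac

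Herc6 (chr6:57580742-57580991, forward strand): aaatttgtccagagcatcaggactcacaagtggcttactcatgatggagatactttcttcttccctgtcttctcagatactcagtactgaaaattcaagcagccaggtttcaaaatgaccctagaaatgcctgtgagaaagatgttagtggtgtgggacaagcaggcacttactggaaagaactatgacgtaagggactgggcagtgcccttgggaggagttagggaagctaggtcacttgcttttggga

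Isg15 (chr4:156200819-156201068, reverse strand): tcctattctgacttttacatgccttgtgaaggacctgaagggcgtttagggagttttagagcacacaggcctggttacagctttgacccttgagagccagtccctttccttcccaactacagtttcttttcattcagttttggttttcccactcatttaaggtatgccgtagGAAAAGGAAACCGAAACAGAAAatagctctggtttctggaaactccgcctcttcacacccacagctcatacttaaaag

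Ifit1 (chr19:34640639-34640888, forward strand): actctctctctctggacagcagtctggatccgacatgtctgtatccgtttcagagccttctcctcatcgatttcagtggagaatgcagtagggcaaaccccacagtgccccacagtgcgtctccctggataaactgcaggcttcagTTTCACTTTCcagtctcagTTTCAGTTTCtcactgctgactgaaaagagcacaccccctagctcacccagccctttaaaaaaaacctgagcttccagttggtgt

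The first base of the match lay 120 bases before the start in Rsad2 and 222 bases before it in Stat2. Isg15 held 3 overlapping matches, 78, 72 and 66 bases before the start, and Ifit1 held matches at 104 and 85 bases. No match was found in the window of Herc6. The motif was present in 4 of the 9 genes with a window that fell at 31 d and in 9 of the other 14, a difference that was not tested. A match describes these letters and is no evidence of binding.

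The arrays themselves differed between the groups, in a way that touches every result that follows. Transcripts of bacterial genes, spiked into every sample in equal amount to check the hybridisation, averaged 10.47 to 10.87 (log2 intensity) on control arrays and 11.80 to 13.18 on MEC1 arrays. MEC1 replicate 3 at 31 d stood apart with the highest of these values and with the lowest mitochondrial median, 6.14 against 7.38 and 7.86 in its group. Of 9 measured monocyte and macrophage markers, 7 were called lower at 31 d, where 21.1% of all clusters were called lower and 22.6% higher. Of clusters at a level of 10 to 12 in control mice 56.6% were called lower. Mertk, a receptor of macrophages that clear dead cells, was higher, but it lay at or below the array median on 9 of the 12 arrays. Among clusters at or below a level of 4 in control mice 50.7% were called higher on that day. All monocyte list means lay between 9.93 and 12.0, so that the labelled cell type was present in every group. Neutrophil markers averaged 12.0 to 14.9 and erythroid markers 5.26 to 12.3, so that the fractions also held RNA of other marrow cells. Only 3 arrays per group were available, and that number limits how precise the values are. The part of these array-wide differences in the changes of interferon genes was not tested, apart from the alternative fits given below. In bulk RNA, fewer cells of a type and less RNA per cell cannot be told apart.

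At 21 d no interferon gene passed the test, although most were lower with MEC1. In limma none of the 32 was called in either direction (lowest adjusted p = 0.0733, for Ifit2), where 4.34% of all tested clusters were called. At an unadjusted p under 0.05 there were 9 of 32, against 23.4% of all clusters. The changes ranged from -1.60 to 0.68 on the log2 scale with a median of -0.25, against 0.02 over all clusters, and 24 of 32 were below 0, where 51.7% of all clusters were above it. Brighter clusters in general leaned lower. By level in control mice, the 11 genes between 4 and 6 had a median of -0.02, against 0.07 for all clusters there. The 14 between 6 and 8 had -0.50 against -0.31. The 5 between 8 and 10 had -1.02 against -0.42, and the 2 between 10 and 12 had -0.61 against -0.36. The groups did not overlap in 4 genes, all lower with MEC1, where 13.7% of clusters behaved so: Ifit2, Stat2, Parp14 and Isg15.

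The MEC1 mice of 21 d differed among themselves. Replicate 3 was the highest of its group in 26 of 32 genes, and replicate 1 the lowest in 22. Erythroid markers averaged 6.82, 7.84 and 10.53 in replicates 1 to 3, and the handling genes, induced when tissue is dissociated, 11.67, 12.33 and 13.07, against 13.04 to 13.57 in control mice of both days. Replicate 3 was thus nearest to the controls in both, and the part of these in the interferon genes was not tested. Without replicate 3, 8 genes were called, all lower: Ifit2, Usp18, Stat2, Cmpk2, Herc6, Irf7, Irf9 and Dhx58. The clusters called lower also rose in number without it, from 934 to 1591 of 37240.

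At 31 d 11 interferon genes fell with MEC1 and none rose. The transcription factors Stat2 and Irf9, the brake Usp18, the effectors Cmpk2, Rsad2 and Ifit2, the DNA-binding proteins Ifi204 and Ifi211, the ligase Herc6, the nuclear body protein Sp100 and Trim30a fell by 0.99 to 2.59 on the log2 scale, or 1.98-fold to 6.02-fold. All 11 had groups that did not overlap. The 11 of 32 (34.4%) compare with 21.1% of all clusters and 29% of named genes called lower on that day, so that the share was near the background. The median change was -0.49, against 0.043 over all clusters, and 26 of 32 changes were below 0, where 51.8% of all clusters were above it. In both directions together 43.8% of clusters were called on that day.

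**Figure D1:**
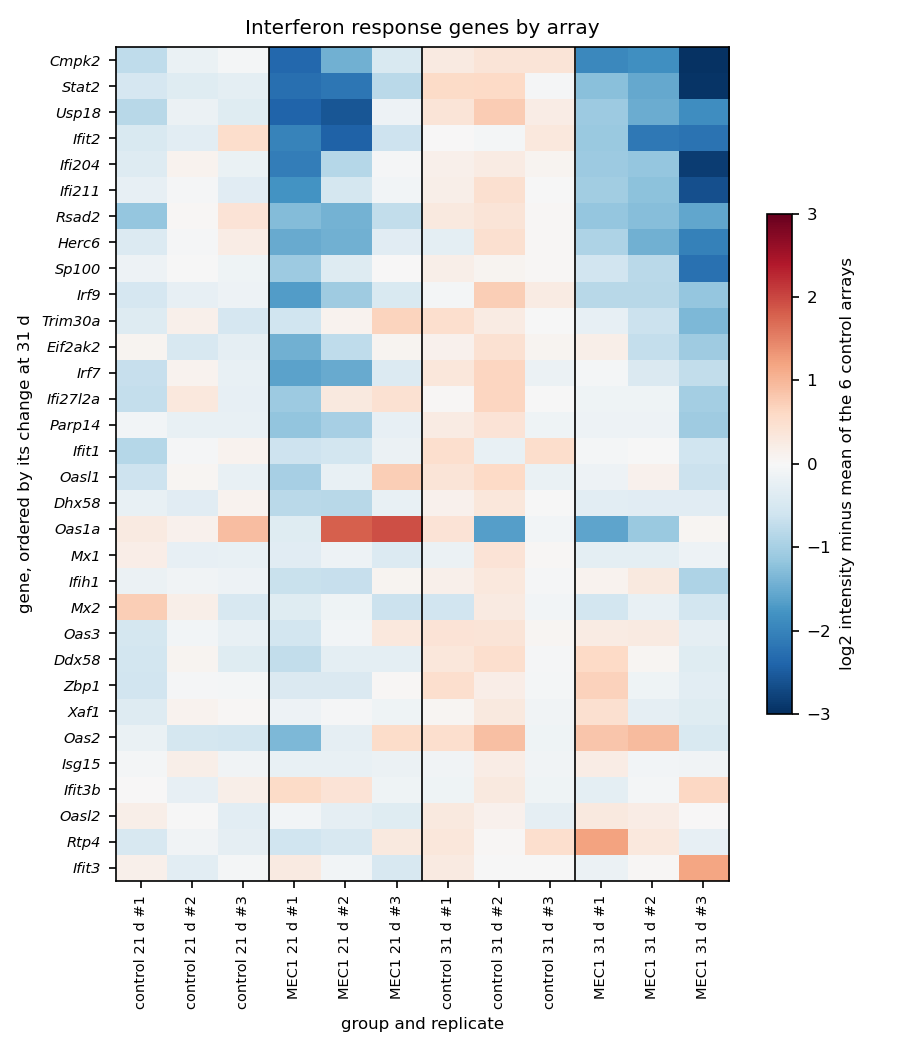
Log2 intensity of each of the 32 interferon genes (rows, ordered by the change at 31 d) on each of the 12 arrays (columns), minus the mean of the 6 control arrays, on a colour scale from -3 to 3. In 8 of the upper 11 rows the lowest array is MEC1 replicate 3 at 31 d (in Ifit2, Usp18 and Irf9 it is a MEC1 array of 21 d), and MEC1 replicate 3 at 21 d is close to the controls in most rows.

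Gene positions are those of RefSeq on GRCm38.p6. Stat2 (chr10:128270498-128292853) and Irf9 (chr14:55603985-55610030) are parts of ISGF3. Stat2 stood at 9.28, 9.30 and 8.66 in control mice at 31 d and at 7.45, 7.17 and 5.76 in MEC1 mice. It fell by 2.29 (95% interval -3.30 to -1.27, limma adjusted p = 0.0039), or 4.88-fold. At 21 d the control mice were tight at 8.19, 8.33 and 8.41, while the MEC1 mice spread over 6.44, 6.53 and 7.89. Every MEC1 mouse of 21 d lay below every control mouse, but the change of -1.36 missed the threshold (adjusted p = 0.114).

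Irf9, which gives ISGF3 its DNA specificity, read 7.90, 8.69 and 8.19 in control mice at 31 d and 7.12, 7.13 and 6.80 in MEC1 mice. The fall was 1.24 (adjusted p = 0.0078). At 21 d its values were 7.44, 7.71 and 7.80 without MEC1 and 6.29, 6.90 and 7.50 with it, and these ranges overlapped. Irf7, the factor that amplifies interferon production, was not called on either day. It read 7.37, 7.66 and 6.86 in control mice at 31 d and 6.96, 6.59 and 6.29 in MEC1 mice, a change of -0.68 (adjusted p = 0.126), and its change at 21 d was -0.91 (adjusted p = 0.149).

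Usp18 (chr6:121245906-121270917) removes the ubiquitin-like protein Isg15 from its targets and blocks signalling at Ifnar2. Control mice at 31 d gave 8.24, 8.61 and 8.08 and MEC1 mice 6.76, 6.37 and 5.99. The fall of 1.94 (adjusted p = 0.015) left more than 1 log2 unit between the groups. At 21 d the MEC1 values were 5.45, 5.28 and 7.71, the last of them above all controls (7.02, 7.68 and 7.49). The E3 ligase Herc6 (chr6:57580992-57665136), which attaches Isg15 in the mouse, fell by 1.53 (adjusted p = 0.0082), from 7.93, 8.71 and 8.27 to 7.30, 6.80 and 6.21. Its values at 21 d were 7.83, 8.19 and 8.46 without MEC1 and 6.73, 6.79 and 7.90 with it, so that only replicate 3 reached the control range.

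Isg15 itself showed no such fall. It read 4.72, 5.05 and 4.71 in control mice at 31 d and 5.06, 4.75 and 4.72 in MEC1 mice, a change of 0.02 with a 95% interval of -0.32 to 0.36. At 21 d it was 4.77, 5.0 and 4.71 without MEC1 and 4.60, 4.61 and 4.64 with it, and the non-overlapping groups were 0.21 apart (adjusted p = 0.423). These readings were dim. On 10 of 12 arrays Isg15 did not exceed the brightest of the 23 background features, so that its change is poorly measured.

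Cmpk2 (chr12:26469117-26479837), a mitochondrial nucleotide kinase, and its neighbour Rsad2 (chr12:26442743-26456452), which encodes the antiviral enzyme viperin, fell together. Cmpk2 stood at 8.96, 9.07 and 9.08 in control mice at 31 d and at 6.76, 6.85 and 5.73 in MEC1 mice. Its fall of 2.59 (interval -3.55 to -1.63, adjusted p = 0.0017) was the largest of the list. The 21 d values ran lower from the controls (7.93, 8.49 and 8.64) to the MEC1 mice (6.33, 7.25 and 8.23) with overlap, a change of -1.08 (adjusted p = 0.168). Rsad2 read 7.35, 7.43 and 7.08 in control mice at 31 d and 5.88, 5.78 and 5.50 in MEC1 mice, a fall of 1.57 (adjusted p = 0.0059). Its control mice at 21 d read 5.89, 7.08 and 7.47, and the MEC1 mice 5.74, 5.64 and 6.30.

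The Ifit genes lie side by side on chromosome 19 and encode proteins that bind viral RNA or block its translation. Ifit2 (chr19:34550550-34576534) alone among the 4 measured was called: it read 7.65, 7.58 and 7.97 in control mice at 31 d and 6.54, 5.51 and 5.43 in MEC1 mice, a fall of 1.91 (adjusted p = 0.0085). At 21 d it read 7.18, 7.34 and 8.17 without MEC1 and 5.65, 5.22 and 7.03 with it. Those groups did not overlap either, and the change of -1.60 had the lowest adjusted p of the list on that day. Ifit1, Ifit3 and Ifit3b had changes of -0.49, 0.27 and 0.07 at 31 d. They were at or below the brightest background feature on 11, 9 and 11 of the 12 arrays, and the near-identical Ifit3 and Ifit3b may share probes.

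The Ifi200 proteins sense DNA and shape transcription in myeloid cells. Ifi204 (chr1:173747293-173767069) stood at 10.65, 10.74 and 10.56 in control mice at 31 d and at 9.40, 9.32 and 7.64 in MEC1 mice, a fall of 1.86 (adjusted p = 0.016). Ifi211 (chr1:173896339-173913087) went from 9.50, 9.80 and 9.32 to 8.28, 8.10 and 6.68, a fall of 1.85 (adjusted p = 0.01). In both genes MEC1 replicate 3 lay far below the others. The MEC1 mice of 21 d were spread, with Ifi204 at 8.42, 9.62 and 10.45 and Ifi211 at 7.54, 8.81 and 9.25, around or below controls of 10.10, 10.59 and 10.28 and of 9.08, 9.29 and 8.98. Members of this family are similar in sequence, so that their probes may not be fully specific.

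Sp100 (chr1:85649948-85709998), a component of nuclear bodies that restrict viruses, fell by 1.31 (adjusted p = 0.021), from 11.27, 11.17 and 11.12 to 10.50, 10.28 and 8.85. At 21 d it read 10.93, 11.07 and 10.95 without MEC1 and 9.99, 10.69 and 11.09 with it. Trim30a (chr7:104409025-104465193), a negative regulator of Toll-like receptor signalling, had the smallest fall, 0.99 (adjusted p = 0.04), from 10.32, 10.08 and 9.82 to 9.58, 9.19 and 8.49. It was also the only one of the 11 whose change at 21 d was above 0 (0.31): it read 9.44, 9.98 and 9.32 without MEC1 and 9.24, 9.93 and 10.49 with it.

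**Figure D2:**
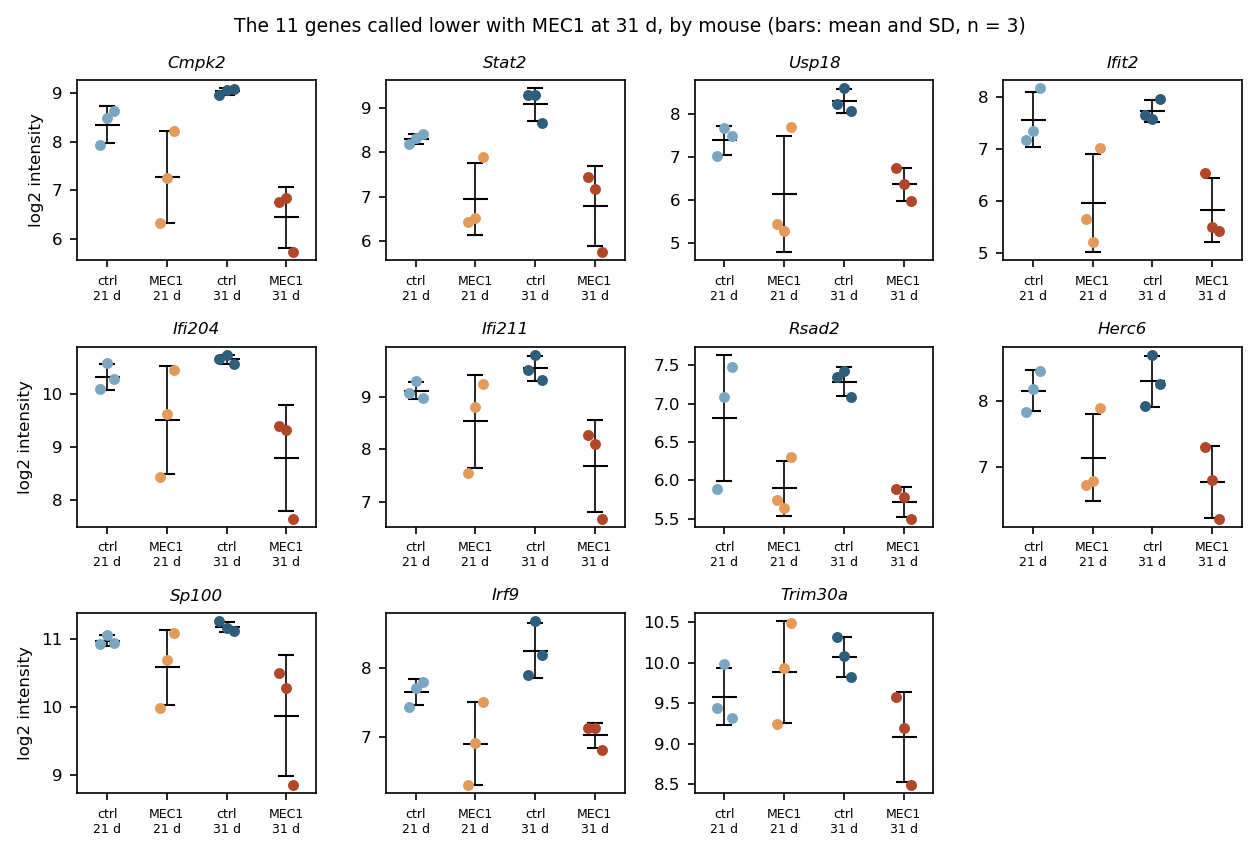
Log2 intensity of the 11 genes called lower at 31 d in each mouse (points, 3 per group), with the group mean and SD (bars), for control and MEC1 mice at both days. In every panel the 3 MEC1 mice of 31 d lie below the 3 control mice of 31 d, while the MEC1 mice of 21 d overlap their controls in 9 of the 11 panels.

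The remaining 21 genes were not called at 31 d, with changes from -0.76 to 0.27 and a median of -0.31. Among them 3 had groups that did not overlap, all lower with MEC1. Dhx58, a regulator of the RNA sensors, read 6.96, 7.17 and 6.83 without MEC1 and 6.53, 6.50 and 6.51 with it, a change of -0.47 (adjusted p = 0.0642). Parp14, an ADP-ribosyltransferase, read 7.60, 7.77 and 7.22 without and 7.20, 7.19 and 6.29 with MEC1, and at 21 d 7.27, 7.12 and 7.14 without and 6.16, 6.35 and 7.11 with it, a change of -0.64 on both days. Ifi27l2a, a member of the Ifi27 family, read 5.45, 6.05 and 5.39 without and 5.29, 5.29 and 4.39 with MEC1. In all, 14 of the 32 had non-overlapping groups in the lower direction, against 28.4% of all clusters.

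The RNA sensors Ddx58 (RIG-I) and Ifih1 (MDA5) had changes of -0.16 and -0.31 at 31 d, with intervals of -0.75 to 0.42 and of -0.98 to 0.36. The DNA and RNA sensor Zbp1 and the apoptosis regulator Xaf1 had changes of -0.14 and -0.13. The translation inhibitor Eif2ak2 (PKR) had the lowest uncalled change, -0.76 (adjusted p = 0.128). The antiviral GTPases Mx1 and Mx2 had changes of -0.34 and -0.31. In the family of 2'-5' oligoadenylate synthetases and their homologues, which activate RNA decay, none of the 5 measured genes was called, with changes from -0.49 in Oasl1 to 0.12 in Oasl2. Oas1a, which has close copies in the mouse genome, was erratic, at 6.69, 4.62 and 6.20 in control mice and 4.70, 5.16 and 6.33 in MEC1 mice.

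**Figure D3:**
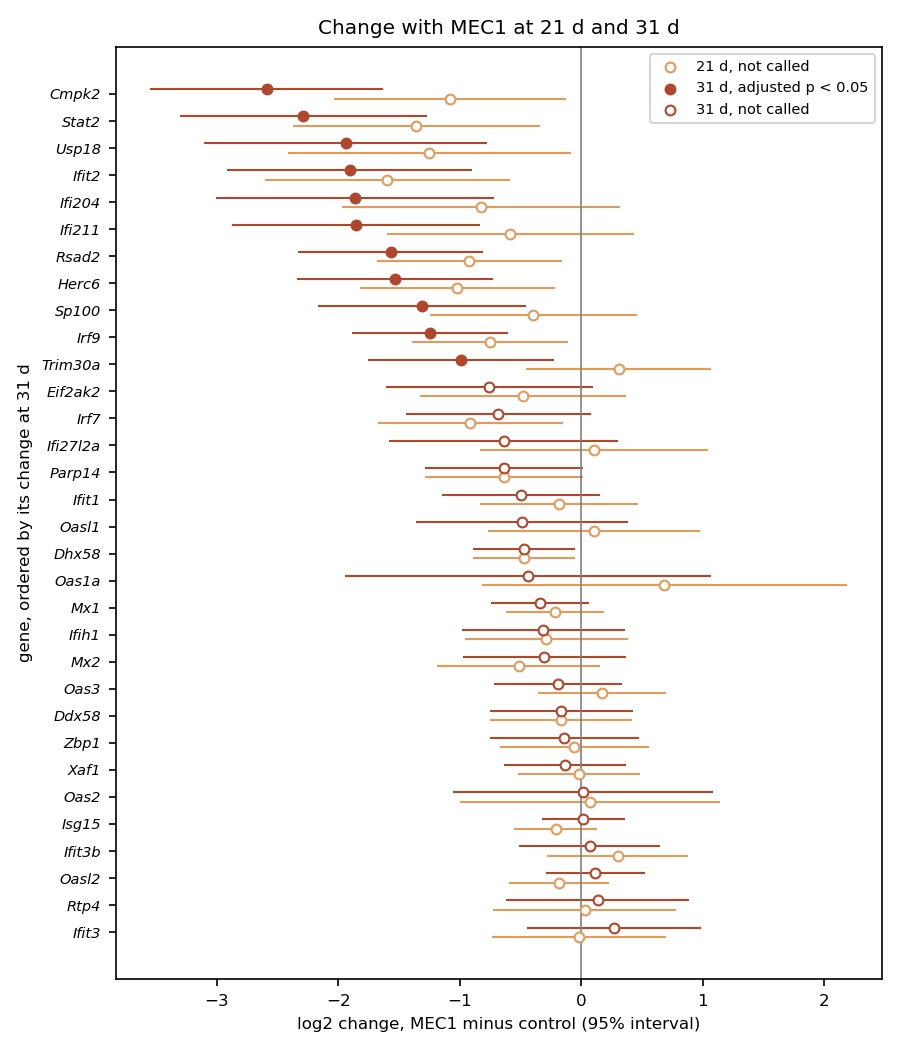
Log2 change with MEC1 and its 95% interval for each of the 32 interferon genes at 21 d and at 31 d, filled where the adjusted p was below 0.05. Only 11 changes at 31 d are filled, all to the left of 0, and the paler intervals of 21 d overlap those of 31 d in each gene.

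Whether a gene of the list was called followed its brightness. Of the 11 genes at a level of 4 to 6 in control mice at 31 d, 0 were called (7.1% of all clusters of that level were called lower), and of the 12 between 6 and 8, 2 were (41.7%). All 6 between 8 and 10 and all 3 between 10 and 12 were called lower, where 56.6% of clusters were in both ranges. The median change of all clusters also ran from 0.14 at a level of 4 to 6 to -1.06 at 10 to 12. Set against the median of their own level, Cmpk2 stood at -1.66, Stat2 at -1.35, Ifit2 at -1.32, Usp18 at -1.0, Rsad2 at -0.98, Ifi211 at -0.92, Ifi204 at -0.80 and Herc6 at -0.60. Irf9 at -0.31, Sp100 at -0.25 and Trim30a at 0.07 were close to what other transcripts of their brightness did. These 11 had been picked by their calls, a choice that favours low values. On the same measure the uncalled genes ran from -0.78 in Ifi27l2a to 0.60 in Oas2. The median change of the listed genes was -0.19 at a level of 4 to 6 and -0.48 at 6 to 8. All clusters of those levels had medians of 0.14 and -0.59.

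**Figure D4:**
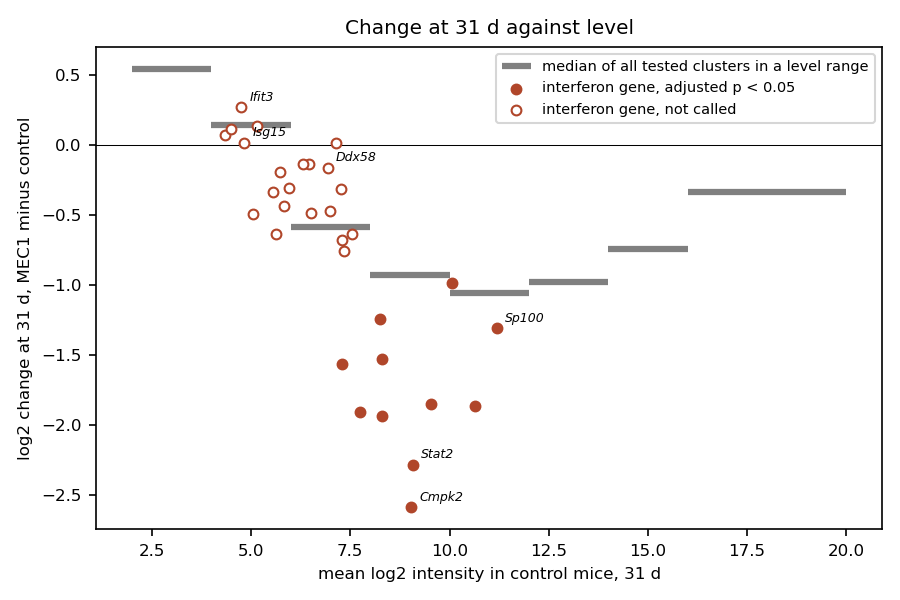
Log2 change at 31 d against the mean log2 intensity in control mice of that day, for the 32 interferon genes (points, filled where called), with the median change of all tested clusters in each level range (grey bars). No gene dimmer than 6 is called, although Ifi27l2a lies at -0.64 there, and Cmpk2 and Stat2 lie farthest below the grey bar of their level.

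The number of calls depended on single arrays and on the scaling. Ifit2, Rsad2, Irf9, Stat2, Cmpk2, Ifi211 and Herc6 passed in all 12 fits that left out 1 array. Without MEC1 replicate 3 at 31 d 8 genes were called, all among the 11: Usp18 (adjusted p = 0.0538), Ifi204 (0.0552) and Trim30a (0.151) were not, and Cmpk2 still stood at -2.23 (adjusted p = 0.00667). Sp100 shrank to -0.80 without that array (adjusted p = 0.0477), and it was not called without control replicate 1 (0.054) or 2 (0.0536) of 31 d. Usp18 was not called without that control replicate 2 either (0.0522), and Trim30a passed in 6 of the 12 fits that left out 1 array. Quantile normalization of all 12 arrays also left 8 calls. The clusters called lower went from 7867 of 37240 to 5371 without that MEC1 array and to 5620 with this normalization. Irf9 went to -0.61 (adjusted p = 0.0783), Trim30a to -0.34 (0.363) and Usp18 to -1.43 (0.0579), none of them called, while Sp100 at -0.73 and Herc6 at -0.97 were called with smaller changes. With quantile normalization and without MEC1 replicate 3 at 31 d only Cmpk2 and Stat2 were called, where 3390 of 36506 clusters were called lower. With the level of the hybridisation controls as a further term of the fit, no gene was called and the median change of the list turned to 0.88. In that fit only 7 of all 37240 clusters were called, against 16297 without the term, so that the loss was not particular to these genes. That term differed mainly by group, which made up 92.1% of its variance.

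The change with MEC1 was not shown to differ between the days. None of the 32 genes was called for the difference (0.00269% of clusters were), the lowest adjusted p was 0.352, for Trim30a, and 2 genes, Trim30a and Cmpk2, had an unadjusted p under 0.05, as 12.9% of clusters did. The 11 genes that fell at 31 d had a median change of -0.92 at 21 d and of -1.85 at 31 d, and 10 of them were below 0 at 21 d. For Cmpk2 the difference was -1.51 (interval -2.86 to -0.16), and for Ifit2 -0.31 (interval -1.73 to 1.11).

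In control mice the interferon genes were mostly higher at 31 d than at 21 d, without a call. The change was above 0 in 30 of 32 genes, where 45.9% of all clusters were, with a median of 0.43 against -0.023. No gene was called (0.00806% of clusters were, lowest adjusted p = 0.736) and 1, Oas3, had an unadjusted p under 0.05, as 6.54% of clusters did. In 10 genes the older mice were all above the younger ones, against 6.22% of clusters: Cmpk2, Stat2, Usp18, Irf9, Ifi211 and Sp100, with the values given above, and Oas2, Oas3, Ifih1 and Rtp4. Oas2 read 6.51, 6.19 and 6.16 at 21 d and 7.21, 7.61 and 6.59 at 31 d. Oas3 read 4.92, 5.37 and 5.23 and then 5.86, 5.83 and 5.50. Ifih1 read 6.94, 7.01 and 6.97 and then 7.27, 7.43 and 7.08, and Rtp4, a chaperone of receptors, 4.36, 4.74 and 4.58 and then 5.18, 4.89 and 5.35. The 31 d control arrays are also those against which the falls with MEC1 were measured. Neutrophil markers averaged 13.40 to 14.47 in control mice at 21 d and 14.50 to 14.86 at 31 d, and their part in this was not tested.

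Among MEC1 mice the list had no common direction between the days. The median change from 21 d to 31 d was 0.09, 18 genes were above 0 (as were 50.5% of clusters) and 14 below, and none was called (0.226% of clusters were, lowest adjusted p = 0.191). At an unadjusted p under 0.05 there were 4 genes, Oas1a, Trim30a, Oasl2 and Irf7, against 17.3% of clusters. The groups did not overlap in Isg15 (4.60, 4.61 and 4.64, then 5.06, 4.75 and 4.72) and in Oasl2, which read 4.33, 4.15 and 4.07 and then 4.72, 4.64 and 4.43 and never exceeded the brightest background feature. Both were higher at 31 d, as were 8.27% of all clusters. Oas1a, at 5.92, 8.06 and 8.21 and then 4.70, 5.16 and 6.33, had the largest change, -2.0 (adjusted p = 0.191).

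Upstream of these genes, the receptor chains and their kinases were also lower at 31 d. Of 7 receptor and kinase genes tested 6 fell, where 21.1% of all clusters were called lower and 22.6% higher. All 6 were also called without MEC1 replicate 3, and 4 with quantile normalization. Over all clusters 5371 and 5620 of 37240 were called lower in these fits. Ifnar2 read 13.56, 13.55 and 13.38 in control mice and 12.23, 11.86 and 10.35 in MEC1 mice, a fall of 2.02 (adjusted p = 0.0043), or of 1.45 without replicate 3. Ifnar1 fell by 0.83 (adjusted p = 0.019), from 9.16, 9.33 and 9.17 to 8.69, 8.72 and 7.77. It stood at -0.52 without replicate 3, was not called without control replicate 2 (adjusted p = 0.0631), and with quantile normalization was at -0.14 (adjusted p = 0.535). The kinases Jak1, Tyk2 and Jak2 fell by 1.43, 1.40 and 1.10, the interferon gamma receptor chain Ifngr1 fell by 1.30, and Ifngr2 had a change of -0.61 (adjusted p = 0.082). Without replicate 3 Ifngr1 shrank to -0.78 and Jak2 to -0.69. Quantile normalization gave -0.95 for Jak1, -0.77 for Tyk2, -0.81 for Ifngr1 and -0.46 for Jak2, the last not called (adjusted p = 0.0847, and 0.058 without control replicate 2). None of the 7 was called at 21 d, where both interferon receptor chains had groups that did not overlap, lower with MEC1, with changes of -0.63 for Ifnar1 and -0.69 for Ifnar2. These genes were bright, with a list mean of 10.56 to 10.75 in control mice at 31 d. At a level of 8 to 10, where Ifnar1 lay, the median cluster moved by -0.93 at 31 d, and 56.6% were called lower. At 10 to 12 the values were -1.06 and 56.6%, and at 12 to 14, where Ifnar2 lay, -0.98 and 48%.

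The interferon genes themselves were dim: 8 of the 18 ligand genes with a cluster were tested. At 31 d 2 of them rose, Ifnb1 by 1.14 (adjusted p = 0.0057) and Ifna11 by 1.12 (adjusted p = 0.0031). Ifnb1, which encodes interferon beta, read 4.20, 4.23 and 3.43 without MEC1 and 5.09, 4.79 and 5.40 with it. These readings lie within or below the range of the brightest background feature over the arrays, 4.62 to 5.69. Among clusters at or below a level of 4 in control mice 50.7% were called higher, so that a rise in this range was common.

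Of 17 genes that sense nucleic acids or relay the signal to the interferon genes, 11 fell at 31 d and none rose, against the same 21.1% and 22.6% of clusters. The list mean was 7.84 to 7.94 in control mice at 31 d. Of clusters at a level of 6 to 8, 41.7% were called lower, and of those at 8 to 10, 56.6%. Without MEC1 replicate 3, 9 fell and 2 rose, beside 5371 and 5488 of 37240 clusters. With quantile normalization 8 fell and 2 rose, beside 5620 and 5026 clusters. With all 12 arrays as deposited, the largest falls were those of the transcription factors Irf8 (-2.62) and Irf5 (-2.12), Trim25 (-2.29) and Unc93b1 (-1.96). Trim25 activates RIG-I, and Unc93b1 delivers the endosomal Toll-like receptors. At 21 d 4 fell, where 2.51% of clusters were called lower and the interferon genes had no call: the RNA receptors Tlr7 by 2.66 (adjusted p = 0.0055) and Tlr8 by 1.79 (0.018), Irf5 by 1.35 (0.033) and Trim25 by 1.19 (0.046). Tlr7 read 8.65, 8.99 and 8.59 in control mice and 6.34, 6.43 and 5.48 in MEC1 mice of 21 d. Tlr7 was called in all 12 fits that left out 1 array, Tlr8 in 8, Irf5 in 7 and Trim25 in 3, and with quantile normalization Trim25 was not called (adjusted p = 0.0686). Of 8 brakes on the response 3 fell at 31 d: Samhd1, which depletes nucleotides, by 2.10, the repressor Irf2 by 0.99 and the ligase Pias1 by 0.72, the last not without MEC1 replicate 3 (adjusted p = 0.132) or any control replicate of that day. Irf2 also fell at 21 d, by 1.02 (adjusted p = 0.034), in 7 of the 12 fits that left out 1 array. With quantile normalization Samhd1 alone was called at 31 d: Irf2 was at -0.32 (adjusted p = 0.341) and Pias1 at -0.12 (0.636), and Irf2 at 21 d was at -0.66 (0.17).

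In a second list of 45 tested interferon-induced genes, 22 fell and 2 rose at 31 d, beside 21.1% and 22.6% of clusters. The list mean was 7.21 to 7.4 in control mice at 31 d. Of clusters at a level of 6 to 8, 41.7% were called lower and 8.6% higher, so that the share that fell was near that of its brightness. Without MEC1 replicate 3, 14 fell and 2 rose, beside 5371 and 5488 of 37240 clusters. With quantile normalization 12 fell and 3 rose, beside 5620 and 5026 clusters. At 21 d 3 fell with all 12 arrays as deposited, beside 2.51% of clusters. The largest falls were those of the Ifi200 genes Mndal (-2.78) and Ifi207 (-1.96), the nuclear body organiser Pml (-2.75) and the galectin Lgals9 (-1.83). Pml, the partner of Sp100 in nuclear bodies, read 7.90, 8.26 and 8.22 without MEC1 and 5.71, 5.34 and 5.08 with it. The helicase Ddx60 rose by 1.0 (adjusted p = 0.02), from 4.67, 4.88 and 4.94 to 6.65, 5.61 and 5.23, and the membrane protein Ifitm1 rose by 0.71 (adjusted p = 0.042). Ddx60 stood at 0.59 without MEC1 replicate 1 and was not called without control replicate 1 (adjusted p = 0.0601), and Ifitm1, at 0.37 without MEC1 replicate 2 (0.114), passed in 4 of the 12 fits that left out 1 array. The calls of 21 d were Slfn5 (-1.22), Ube2l6 (-1.10) and Slfn8 (-0.92). They passed in 8, 3 and 6 of the 12 fits that left out 1 array, and none was called with quantile normalization (adjusted p = 0.0691, 0.126 and 0.097). Ube2l6 and Uba7, the enzymes that pass Isg15 on to the ligase Herc6, fell by 1.68 and 1.30 at 31 d. Uba7 was chosen after its values were seen. With the hybridisation-control covariate none of the receptor, sensing, brake or interferon-induced genes of these lists was called, and the median changes turned to 1.0, 0.09, 0.79 and 0.50. Over all clusters that fit called 7 at 31 d and 4 at 21 d.

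Markers of cells that could carry such transcripts moved as well. The counts of 31 d that follow stand beside 21.1% of all clusters called lower and 22.6% called higher. Brighter clusters were called lower more often: 41.7% at a level of 6 to 8 in control mice, 56.6% at 8 to 12 and 48% at 12 to 14. Of 7 tested genes of plasmacytoid dendritic cells, the main source of type I interferon in blood, 2 fell at 31 d. The list as a whole did not follow them: its median change was -0.11, with 3 of the 7 above 0. Siglech, called on both days, was down by 1.25 at 21 d (adjusted p = 0.043) and by 2.45 at 31 d (adjusted p = 0.00051). The call of Siglech at 21 d passed in 1 of the 12 fits that left out 1 array and was lost with quantile normalization (-0.87, adjusted p = 0.151). With the hybridisation-control covariate Siglech was called on neither day (adjusted p = 0.423 and 0.38), where 4 and 7 of all clusters were. The mean of that list lay between 5.24 and 5.62 in control mice and between 4.86 and 5.16 in MEC1 mice. All 9 tested erythroid markers fell at 31 d, with a list mean of 11.68 to 12.32 in control mice and 5.26 to 6.25 in MEC1 mice. Among 4 tested B cell genes 3 rose at 31 d, or 1 without MEC1 replicate 3. That list was dim, with a mean of 4.32 to 4.44 in control mice and 4.98 to 5.50 in MEC1 mice of 31 d. Of clusters at a level of 4 to 6 in control mice 22% were called higher, and of those at or below 4 50.7%. Of 7 tested handling genes 6 fell at 31 d (median change -2.51), with a list mean of 13.04 to 13.46 in control mice and 10.07 to 11.66 in MEC1 mice. All 7 tested proliferation markers fell (median -2.03), with a list mean of 12.75 to 13.01 in control mice and 9.63 to 11.21 in MEC1 mice. Of 5 tested genes of conventional dendritic cells 3 fell (median -1.23), with a list mean of 5.74 to 6.1 against 4.57 to 4.88. Of 10 neutrophil markers 4 fell (median -0.70), with a list mean of 14.50 to 14.86 against 11.98 to 14.43, and without MEC1 replicate 3 the median was 0.04. The part of these shifts in the interferon genes was not tested.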

How the data were processed

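RNA of bone marrow monocytes and macrophages of 12 mice had been hybridised to 12 arrays. The deposited values were log2 intensities per transcript cluster, made by the authors with RMA and Affymetrix Expression Console, both named without a version per the submitters' processing notes. Of 72688 features 6732 controls were left out, leaving 65956 clusters: 31258 with 1 symbol, 1492 with several and 33206 with none. Testing was limited to clusters brighter than the median of the array on 3 or more arrays. Groups followed the labels, and the mouse numbers mark separate animals.

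With limma 3.58.1 (R 4.3.3), 4 group means were estimated in 1 linear model over all 12 arrays, moderated by empirical Bayes, with two-sided p-values adjusted by Benjamini-Hochberg over 37240 clusters and a threshold of 0.05. The fit was tested on simulated data. The members and the gene lists were chosen with earlier results of these data known. All members are accounted for. Those called, or with groups that do not overlap, are given array by array, and of the other lists up to the 4 largest calls per direction, with the receptors. Lists are described by counts and medians beside those of all clusters. Alternatives were other filters, quantile normalization, centring, array weights, a trended and robust prior, a replicate block, the hybridisation controls as covariate, the compared groups alone, averaged clusters, and leaving out each array. Quantile normalization without MEC1 replicate 3 at 31 d, and the other lists under these settings, were added after seeing the data. Scanner files were not used here.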

Additional observations from a re-analysis of the deposited data

Results flagged for a closer look

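The bacterial hybridisation controls, which are not genes of the comparisons and entered the fits only as the alternative covariate, were higher on the MEC1 arrays than on the control arrays by 1.11 on the log2 scale at 21 d and by 1.96 at 31 d. Their group means were 10.81 ± 0.0866 and 11.92 ± 0.118 at 21 d, and 10.62 ± 0.128 and 12.57 ± 0.541 at 31 d (SD, n = 3 arrays per group), and the groups did not overlap on either day. No group had enough arrays for a test of single outlying values.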

How the results depend on the processing

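At 31 d the count of interferon genes called lower was 8 with quantile normalization, 16 with centring, 13 with array weights, and 8 to 12 when 1 array was left out. Of all 37240 clusters, 5620, 13739, 9591 and 5301 to 8298 were called lower in these fits, against 7867 with all 12 arrays as deposited. The count of interferon genes was 0 with the hybridisation-control covariate, which lies mostly between the groups and left 7 calls over all clusters. It was 2 with quantile normalization and without MEC1 replicate 3, where 3390 of 36506 clusters were called lower. Under the covariate the changes of Stat2, Usp18, Trim30a, Ifi204, Ifi211, Herc6 and Sp100 turned to 1.18, 0.04, 1.15, 1.94, 1.70, 0.68 and 1.90, none of them called, and the cause was not tested. At 21 d array weights gave 14 calls, 2 higher and 12 lower. That setting called 15923 of all 37240 clusters, 8447 higher and 7476 lower. The share in both directions together was thus near the background, while the calls of the list leaned to the lower side. Leaving out 1 array gave 0 to 8 calls at 21 d, beside 330 to 2883 of all 37240 clusters called in these fits. There was 1 call without control replicate 1 of 21 d or MEC1 replicate 3 of 31 d. Between the days in MEC1 mice array weights gave 10 calls, 8 higher and 2 lower. At 21 d the same setting called 15923 clusters, against 1615 without the weights. These 10 calls are therefore not read as particular to the list. The count stayed at 0 for the difference and for control mice under every alternative run. Replicate numbers were not taken as pairs, because the mouse numbers mark separate animals. Deviations of same-numbered mice correlated at 0.363, -0.169 and 0.415 at 21 d and at -0.011, 0.16 and 0.018 at 31 d. Of 12 arrays 7 correlated best with their own number, and what lies behind the correlations of 21 d was not tested. With the replicate number as a block, 10 of the 32 genes were called at 31 d, all lower, as were 7155 of all 37240 clusters. Probes near the background, such as those of Isg15, limit what can be read from 10 of the 32 genes.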
